A study of Mus musculus with 6 samples.

Results

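The mRNA levels of 40 mouse genes of mitosis and the G2/M transition were examined in MLE12 cells by RNA-seq. A gene was a member when its name in the deposited count table equalled 1 of 40 names on a list, and all 40 were found among the 54532 genes of the table. Of these genes, 15307 had enough counts to be tested, and all 40 members were among them. The names are genes of known function in these processes, and the rule used no measured value. The list was chosen with earlier results of these data known. MLE12 is a mouse lung epithelial line, immortalised with the SV40 large T antigen under the human surfactant protein C promoter, and the strain label of the samples is C57BL/6J. The 3 Ctrl shRNA samples received a control lentivirus at a multiplicity of infection (MOI) of 50, which the labels call empty vector. The 3 Idh3α shRNA + Slc25a1 shRNA samples, called knockdown here, received a pair of lentiviruses together at an MOI of 50 each, against the catalytic subunit of mitochondrial isocitrate dehydrogenase 3 and the mitochondrial citrate carrier. Both groups were washed at 16 h and cultured for a further 80 h. Whether the total lentivirus dose was matched between the groups is not given in the sources used here, and the knockdown and any difference in dose cannot be told apart. The labels do not say whether replicates were separate cultures, so p-values measure only the spread between these samples. The question was whether the mRNA of the mitotic machinery differed after silencing of Idh3α and Slc25a1.

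Entry into mitosis depends on CDK1 bound to cyclin A and cyclin B, which CDC25 phosphatases activate. Aurora kinases and kinesins then build the spindle, the spindle assembly checkpoint holds the anaphase-promoting complex until every kinetochore is attached, and the released complex marks securin and the B cyclins for destruction. Most of these genes are transcribed as a late wave in each cycle, through FOXM1, the MuvB complexes and NF-Y, so their mRNA in a bulk sample follows the share of cells in G2 and M phases. In bulk RNA, fewer such cells and less mRNA per cell cannot be told apart.

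The total count was 27273502 to 28535653 per sample, and members had 861 to 40350 counts in a library. Ctrl shRNA replicate 2 stood apart from the other 5 libraries. It had 16681 genes with a count against 19902 to 23147, its 100 most abundant genes took 27.2% of the counts against 12.5% to 12.9%, and its mitochondrial transcripts took 6.49% against 1.57% to 1.80%. The fold changes of the members are therefore given with all 6 samples and without this library. Among the targets, Idh3a was at 79.8, 137 and 93.0 CPM in Ctrl shRNA replicates 1 to 3 and at 58.5, 57.9 and 55.5 CPM after knockdown, where CPM is the read count scaled to library size with TMM factors. The controls had 103, 98.7 and 108 CPM of Slc25a1 and the knockdown samples 68.9, 69.6 and 63.0 CPM. Neither target passed an adjusted p of 0.05 in the edgeR quasi-likelihood test of all 6 samples (adjusted p = 0.254 and 0.104), and both did without Ctrl shRNA replicate 2 (adjusted p = 0.0142 and 0.00649). For the cell type, the summed level of 12 alveolar type 2 markers was 641 to 684 CPM in the controls and 609 to 647 CPM after knockdown. Sftpd was at 0 in all 6 libraries, Sftpa1, Slc34a2, Lamp3 and Lyz2 were under 1 CPM, and Nkx2-1 was the most abundant marker at 277 to 343 CPM. In edgeR with all 6 samples 0 of the 7 of these 12 markers that passed the count filter were called, with Sftpc at a log2 fold change of -1.07 (adjusted p = 0.315). Without Ctrl shRNA replicate 2, where 8 passed it, Sftpc was lower after knockdown (-0.65, adjusted p = 0.0438) and Etv5 higher (0.57, adjusted p = 0.0312). The 10 epithelial markers summed to 1067 to 1199 CPM in the controls and to 1199 to 1312 CPM after knockdown, with Krt18, Cldn4 and Cldn7 under 1 CPM. Of 9 macrophage and leukocyte markers 4 had a count, with a sum of 5.36 to 10.1 CPM in the controls and 6.89 to 7.58 CPM after knockdown, and Ptprc, Adgre1, Itgam, Marco and Tyrobp were at 0. The 7 endothelial markers summed to 37.1 to 46.8 CPM and to 32.5 to 33.9 CPM, with Emcn at 0. Tek made up most of these sums, at 36.0 to 45.8 CPM and 31.5 to 32.3 CPM. The 8 fibroblast markers summed to 346 to 1234 CPM and to 317 to 345 CPM, with Col3a1 at 0. Dcn made up most of these sums in every library, at 320, 1211 and 354 CPM in Ctrl shRNA replicates 1 to 3 and 297 to 318 CPM after knockdown. The part of these cell types in the results was not tested.

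The promoters of the members were described from reference sequence alone. RefSeq promoter sequences on GRCm38.p6, from 250 bases before to 50 bases after the annotated start, were at hand for 32 of the 40 members and covered 35 starts. Aurkb, Ccna2, Cdc25c, Dlgap5, Foxm1, Incenp, Kif20a and Tpx2 had no entry. The cell cycle genes homology region, the element that MuvB complexes bind, was searched as TTTGAA or TTTAAA, and the NF-Y element as CCAAT, both on either strand. TTTGAA reads TTCAAA and CCAAT reads ATTGG on the other strand, and TTTAAA is its own reverse complement. A stretch of 170 bases, from 120 before to 50 after the start, is given for 5 members whose promoter held both elements. It is also given for Mad2l1, whose RefSeq promoter held neither. Matches are in capitals and each strand is the one of the gene.

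Ccnb1: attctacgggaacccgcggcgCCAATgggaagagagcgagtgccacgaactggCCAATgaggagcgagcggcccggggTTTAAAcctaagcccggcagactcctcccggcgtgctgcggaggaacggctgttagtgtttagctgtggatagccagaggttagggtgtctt
Ccnb2: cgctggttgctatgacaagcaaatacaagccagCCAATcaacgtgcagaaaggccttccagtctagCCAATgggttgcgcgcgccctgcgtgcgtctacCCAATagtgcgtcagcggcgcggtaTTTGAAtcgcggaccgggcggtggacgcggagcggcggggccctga
Cdk1: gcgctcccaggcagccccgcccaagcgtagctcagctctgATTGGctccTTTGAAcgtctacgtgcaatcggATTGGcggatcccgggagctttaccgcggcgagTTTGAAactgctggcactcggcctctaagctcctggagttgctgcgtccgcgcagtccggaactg
Cdc20: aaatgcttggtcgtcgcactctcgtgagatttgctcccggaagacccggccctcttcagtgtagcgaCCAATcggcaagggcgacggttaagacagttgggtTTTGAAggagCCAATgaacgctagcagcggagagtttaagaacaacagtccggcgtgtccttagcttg
Ube2c: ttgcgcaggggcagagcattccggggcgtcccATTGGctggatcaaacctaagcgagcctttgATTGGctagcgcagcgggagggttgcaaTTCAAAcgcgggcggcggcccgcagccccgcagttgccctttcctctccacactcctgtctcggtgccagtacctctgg
Mad2l1: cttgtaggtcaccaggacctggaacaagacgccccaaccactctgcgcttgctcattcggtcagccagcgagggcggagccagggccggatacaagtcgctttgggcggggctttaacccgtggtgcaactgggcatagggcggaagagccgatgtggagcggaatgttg

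These lie at chr13:100786437-100786606 (Ccnb1, minus strand), chr9:70421505-70421674 (Ccnb2, minus strand), chr10:69352863-69353032 (Cdk1, minus strand), chr4:118437294-118437463 (Cdc20, minus strand), chr2:164769809-164769978 (Ube2c, plus strand) and chr6:66535101-66535270 (Mad2l1, plus strand). Ccnb1 carried the TTTAAA form, while Ccnb2, Cdk1, Cdc20 and Ube2c carried TTTGAA, in Ube2c on the opposite strand. Either form was present in 29 of the 35 member promoters (82.9%) and in 27.6% of all 32851 promoters of the table. The second starts of Bub3, Ect2 and Prc1 repeat the matches of the first at shifted positions, so these count again in the member shares. All promoters also hold several starts for some genes (32851 promoters of 27025 genes). TTTGAA was in 74.3% of the member promoters against 17.9% of all, and TTTAAA in 22.9% against 13.2%. CCAAT was in 27 member promoters (77.1%) against 37.4% of all. Both elements together were in 25 (71.4%) against 10.7%. Neither was found in 4 member promoters (11.4%), those of Mad2l1, Nuf2, Nusap1 and Pttg1, against 45.7% of all promoters. For Mad2l1 the searched window ended at 66535270, before the counted gene began at 66535390. The sequence at that later start was not searched. In 22 members a TTTGAA or TTTAAA match began within 50 bases of the start, and in 1 promoter, that of Cdca8, such a match shared bases with a CCAAT match. A match is a description of letters and not a binding site.

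**Figure D1:**
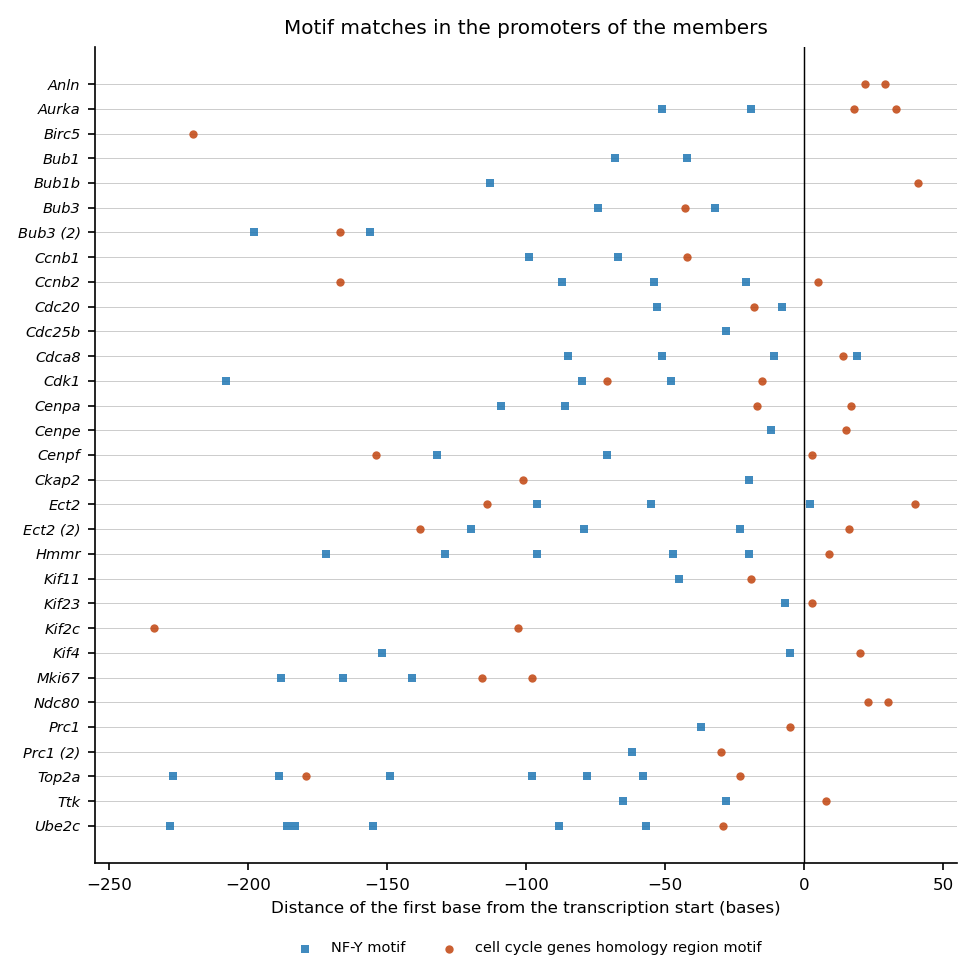
Positions of TTTGAA or TTTAAA (circles) and CCAAT (squares) on either strand in the member promoters with a match, by distance in bases from the annotated start, with a second start of a gene marked (2). In 22 members a circle lies within 50 bases of the start, and the squares lie mostly before it.

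None of the 40 members passed the adjusted p of 0.05 in the edgeR test of all 6 samples, in either direction. Among all 15307 genes tested, 0.0588% were called higher and 0.00653% lower, so this fit called few genes of any kind. Without Ctrl shRNA replicate 2, 1.11% of 15709 genes were called higher and 0.675% lower, and again none of the members was. DESeq2 on all 6 samples called 1.73% of genes higher and 1.25% lower and no member. limma with sample quality weights called 8.67% higher and 6.34% lower and no member. The lowest adjusted p of a member was 0.349 with all 6 samples, 0.143 without Ctrl shRNA replicate 2, and 0.0554 over all 18 fits (Bub1b).

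At an unadjusted p under 0.05, edgeR on all 6 samples counted 1 member higher (Bub1b), where 7.47% of all genes were counted higher, and 0 members lower, where 6.65% were. Leaving out Ctrl shRNA replicate 2, it counted Ube2c higher (all genes 9.54%) and Ccnb2, Mad2l1, Mki67 and Pttg1 lower (all genes 10.3%). DESeq2 counted Bub1b higher (all genes 7.15%) and Cdk1, Mad2l1 and Pttg1 lower (all genes 10.5%). limma with quality weights counted Aurka and Bub1b higher (all genes 18.2%) and Ccnb2, Cdk1, Mki67 and Pttg1 lower (all genes 16.6%). The groups did not overlap, 3 samples against 3, for 2 members that were higher after knockdown (Bub1b and Cdc25b; all genes 14.7%) and 6 that were lower (Anln, Ccnb2, Mad2l1, Ndc80, Nuf2 and Pttg1; all genes 10.7%). These 8 members had the smallest two-sided p that an exact permutation test of 3 samples against 3 can give, 0.1. Leaving out Ctrl shRNA replicate 2, the groups did not overlap for 6 members that were higher (Aurka, Bub1b, Bub3, Ccnb1, Cdc25b and Ube2c; all genes 20.3%) and 8 that were lower (Anln, Ccnb2, Dlgap5, Mad2l1, Mki67, Ndc80, Nuf2 and Pttg1; all genes 17.3%).

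As a set, the members had a median log2 fold change of -0.10 with all 6 samples and -0.0149 without Ctrl shRNA replicate 2. Over all genes tested the medians were -0.01 and -0.0151, so they were nearly equal to those of the members only without that library. Scaled by library size only, the median of all 6 samples was 0.10 for the members and 0.16 for all genes, so the members stayed below all genes while the sign turned. With all 6 samples 15 members were above 0 and 25 below, and without that library 18 and 22, with 11 members on different sides of 0 in the fits. The log2 fold changes ran from -1.25 (Pttg1) to 0.19 (Bub1b) with all samples and from -0.30 (Pttg1) to 0.19 (Ube2c) without it. Standard errors were 0.07 to 0.55 and 0.06 to 0.14. The 95% interval of the fold change lay within 2-fold in either direction (log2 -1 to 1) for 33 of the 40 members with all 6 samples and for all 40 without Ctrl shRNA replicate 2. In that fit it lay within log2 -0.5 to 0.5 for 38, the exceptions being Mki67 and Pttg1.

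**Figure D2:**
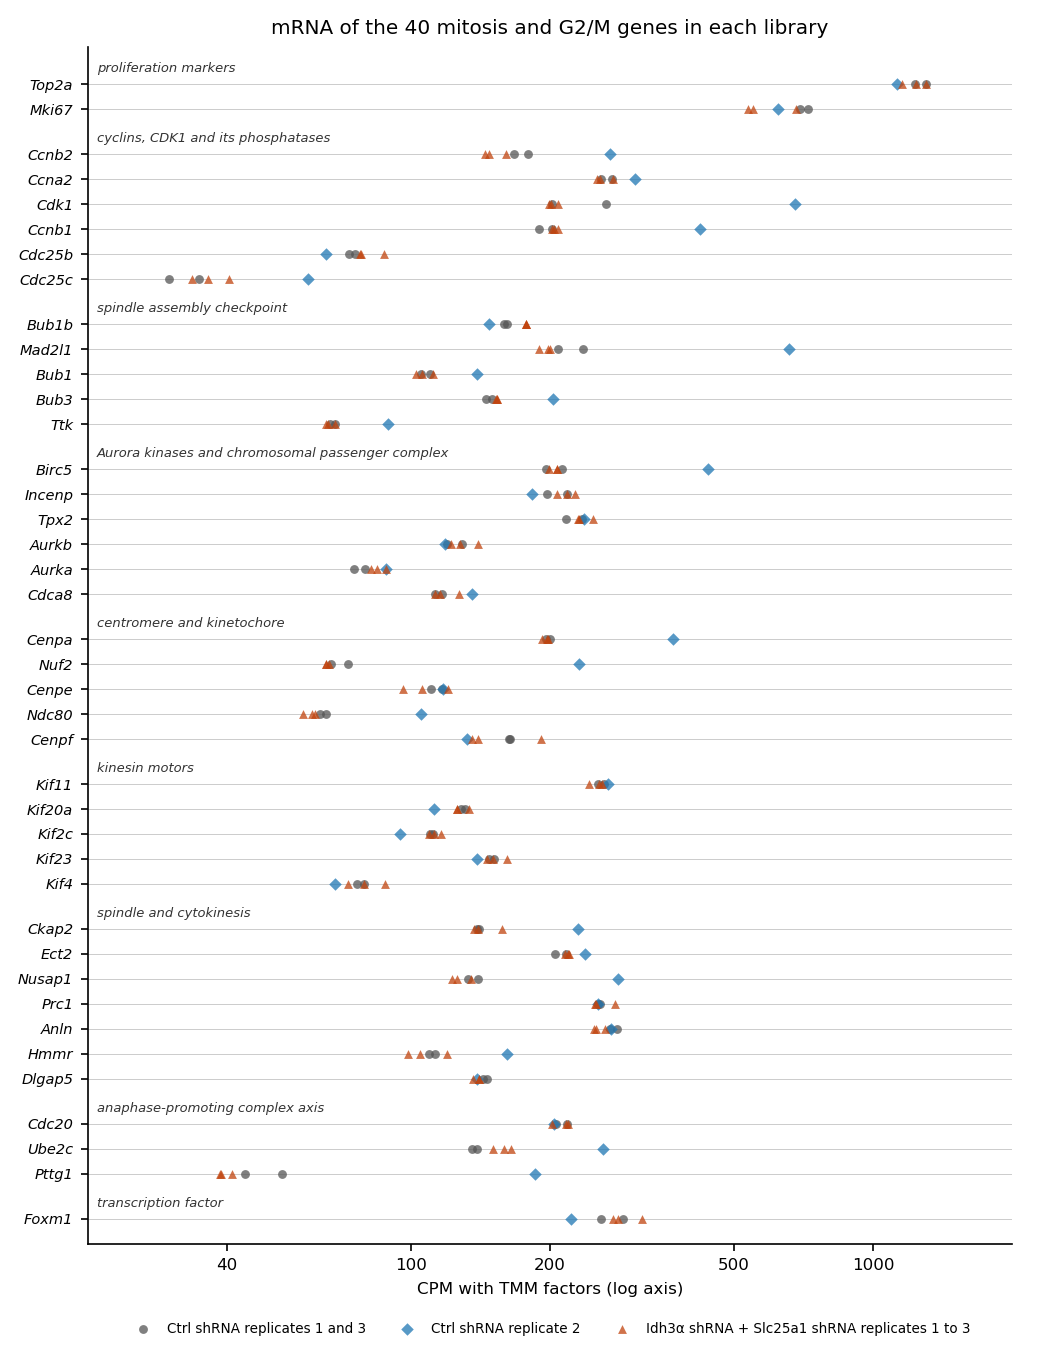
CPM of each member in each of the 6 libraries (log axis), grouped by role and ordered by mean FPKM within a role, with Ctrl shRNA replicate 2 as diamonds, the other controls as circles and knockdown samples as triangles. Circles and triangles lie close together for most genes, and the diamond lies far to the right for Pttg1, Nuf2, Mad2l1 and Cdk1.

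Mki67 and Top2a are general markers of proliferation. Mki67 (chromosome 7, 135689784 to 135716361 on GRCm38), which codes for the Ki-67 protein that coats mitotic chromosomes, stood at 723, 623 and 694 CPM in Ctrl shRNA replicates 1 to 3 and at 536, 549 and 681 CPM in knockdown replicates 1 to 3. The controls and the knockdown samples overlapped, since Ctrl shRNA replicate 2 lay between the knockdown values, and the other controls lay above all of them. The log2 fold change was -0.21 ± 0.13 (SE, as for all fold changes; adjusted p = 0.446), and -0.28 ± 0.11 without Ctrl shRNA replicate 2 (unadjusted p = 0.0302, adjusted p = 0.205). Top2a, the topoisomerase that untangles replicated DNA (chromosome 11, 98992943 to 99024189), stood at 1303, 1128 and 1234 CPM in the controls against 1241, 1153 and 1302 CPM after knockdown. The groups overlapped, and the log2 fold changes were 0.01 ± 0.12 and -0.05 ± 0.07 with and without that library (adjusted p = 0.967 and 0.733). Per length, Top2a had the highest level of the 40 members, at 136 ± 10.9 FPKM in the controls (SD, n = 3) and 137 ± 8.46 FPKM after knockdown.

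Of the cyclins, CDK1 and its phosphatases, 0 of 6 passed the test. Ccnb1, which codes for cyclin B1 (chromosome 13, 100778650 to 100786570), stood at 190, 421 and 202 CPM in the controls against 204, 208 and 202 CPM after knockdown. The 3 knockdown samples lay within a few percent of each other, just above Ctrl shRNA replicates 1 and 3 and far below replicate 2. Its log2 fold change was -0.40 ± 0.31 (adjusted p = 0.518), and it was 0.06 ± 0.06 without Ctrl shRNA replicate 2 (adjusted p = 0.671), with a 95% interval of -0.09 to 0.20. Ccnb2, which codes for cyclin B2 (chromosome 9, 70407692 to 70421547), stood at 167, 270 and 179 CPM in the controls against 161, 148 and 144 CPM after knockdown. Every knockdown sample was below every control, by a small margin for replicates 1 and 3. Its change was -0.44 ± 0.19 on the log2 scale (adjusted p = 0.357) and -0.20 ± 0.07 without Ctrl shRNA replicate 2 (unadjusted p = 0.0208, adjusted p = 0.176).

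Ccna2, which codes for cyclin A2 of S phase and early mitosis (chromosome 3, 36564865 to 36572150), stood at 258, 305 and 273 CPM in the controls against 257, 274 and 252 CPM after knockdown. The groups overlapped, with log2 fold changes of -0.09 ± 0.09 and -0.03 ± 0.07 (adjusted p = 0.622 and 0.835). Cdk1, the kinase that these cyclins activate (chromosome 10, 69335146 to 69352938), stood at 202, 677 and 265 CPM in the controls against 208, 199 and 201 CPM after knockdown. Ctrl shRNA replicate 1 lay among the knockdown samples, replicate 3 above them and replicate 2 at 2.90-fold the mean of those controls. The log2 fold change of Cdk1 was -0.91 ± 0.44 (adjusted p = 0.373) and -0.21 ± 0.10 without Ctrl shRNA replicate 2 (adjusted p = 0.296).

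Cdc25b, a phosphatase that starts the activation of CDK1 (chromosome 2, 131186949 to 131198497), stood at 75.9, 65.4 and 73.4 CPM in the controls against 77.9, 87.3 and 77.5 CPM after knockdown. All knockdown samples were above all controls, and the log2 fold change was 0.18 ± 0.09 (adjusted p = 0.384) and 0.11 ± 0.08 without Ctrl shRNA replicate 2 (adjusted p = 0.477). Cdc25c, its relative that acts in the feedback loop with CDK1, lies on chromosome 18 and stood at 34.9, 59.9 and 30.0 CPM in the controls against 33.7, 40.5 and 36.4 CPM after knockdown. The groups overlapped, and the sign of its log2 fold change was not the same in the fits (-0.17 ± 0.26, adjusted p = 0.755, and 0.17 ± 0.11, adjusted p = 0.398).

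The 5 spindle assembly checkpoint genes included the smallest adjusted p of any member over all fits, and 0 of 5 passed the test. Bub1b, which codes for the checkpoint kinase-like protein BUBR1 (chromosome 2, 118598211 to 118641591), stood at 159, 148 and 161 CPM in the controls against 177, 178 and 178 CPM after knockdown. The 3 knockdown samples were nearly identical and all above the controls. Its log2 fold change was 0.19 ± 0.07 (95% interval 0.02 to 0.36, unadjusted p = 0.0366, adjusted p = 0.349), the largest of the members with all 6 samples. With 5 libraries, leaving out Ctrl shRNA replicate 2, it was 0.14 ± 0.06 (unadjusted p = 0.0507, adjusted p = 0.253).

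Bub1, the kinase that recruits BUBR1 to kinetochores (chromosome 2, 127801122 to 127831865), stood at 105, 139 and 110 CPM in the controls against 106, 112 and 102 CPM after knockdown, and the groups overlapped. The log2 fold changes were -0.15 ± 0.12 and -0.02 ± 0.07 (adjusted p = 0.545 and 0.891). Mad2l1, which codes for the checkpoint protein MAD2 that binds CDC20 (chromosome 6, 66535390 to 66547220), stood at 208, 657 and 236 CPM in the controls against 200, 189 and 198 CPM after knockdown. All knockdown samples lay below all controls, closely for Ctrl shRNA replicate 1 and widely for replicate 2. Its log2 fold change was -0.90 ± 0.44 (adjusted p = 0.375) and -0.19 ± 0.07 without that library (unadjusted p = 0.0337, adjusted p = 0.215). Bub3, the partner of BUB1 and BUBR1, and Ttk, the kinase MPS1, had log2 fold changes of -0.12 and -0.16 with all samples and of 0.05 and -0.03 without it.

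Of the Aurora kinases and the chromosomal passenger complex, 0 of 6 passed the test. The median log2 fold change of the group was 0.05 in both fits. Aurka, the kinase of the spindle poles (chromosome 2, 172356190 to 172370535), stood at 79.8, 88.4 and 75.3 CPM in the controls against 88.5, 84.4 and 82.1 CPM after knockdown. Ctrl shRNA replicates 1 and 3 lay below every knockdown sample, and replicate 2 lay within their range. Its change was 0.07 ± 0.08 on the log2 scale (adjusted p = 0.703) and 0.12 ± 0.07 without Ctrl shRNA replicate 2 (adjusted p = 0.358). Aurkb, the catalytic subunit of the passenger complex (chromosome 11, 69045647 to 69051664), stood at 129, 118 and 120 CPM in the controls against 128, 140 and 122 CPM after knockdown, and the groups overlapped. Its log2 fold changes were 0.08 ± 0.08 and 0.05 ± 0.08 (adjusted p = 0.617 and 0.765).

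Birc5, which codes for survivin of the same complex (chromosome 11, 117849251 to 117855743), stood at 196, 439 and 213 CPM in the controls against 207, 207 and 199 CPM after knockdown. The knockdown samples lay between Ctrl shRNA replicates 1 and 3, and replicate 2 was at 2.15-fold the mean of those controls. The log2 fold change was -0.47 ± 0.31 with all samples (adjusted p = 0.462) and -0.01 ± 0.07 without replicate 2 (95% interval -0.16 to 0.15, adjusted p = 0.954). Incenp and Cdca8, the scaffold and borealin subunits, and Tpx2, the activator of AURKA, had log2 fold changes between -0.04 (Cdca8) and 0.12 (Incenp) with all samples, and between 0.04 and 0.06 without that library.

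None of the 5 centromere and kinetochore genes passed the test, and 4 of the 5 had a negative log2 fold change with all samples (7847 of all 15307 genes), with a median of -0.37. Without Ctrl shRNA replicate 2 all 5 were negative (8275 of all 15709 genes), with a median of -0.09. Cenpa, the histone H3 variant of centromeres (chromosome 5, 30666777 to 30674830), stood at 200, 369 and 196 CPM in the controls against 193, 197 and 199 CPM after knockdown. The 5 libraries other than Ctrl shRNA replicate 2 were within 1.04-fold of each other. Its log2 fold change was -0.38 ± 0.26 with all samples and -0.02 ± 0.06 without that library (adjusted p = 0.465 and 0.874). Nuf2, a subunit of the NDC80 complex that holds microtubules (chromosome 1, 169497934 to 169531464), stood at 67.3, 231 and 73.3 CPM in the controls against 65.6, 66.6 and 65.6 CPM after knockdown. Every knockdown sample was below every control, narrowly for replicate 1 and widely for replicate 2. The log2 fold change was -0.91 ± 0.48 and -0.10 ± 0.07 (adjusted p = 0.389 and 0.441).

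Ndc80, the partner of NUF2, was also below every control after knockdown, at 63.7, 105 and 65.5 CPM in the controls and 61.9, 61.2 and 58.4 CPM in the knockdown samples. Its log2 fold changes were -0.37 and -0.10 (adjusted p = 0.398 and 0.418). Cenpe, a kinetochore kinesin, and Cenpf, a large kinetochore and matrix protein, had log2 fold changes of -0.10 and 0.02 with all samples and of -0.09 and -0.08 without Ctrl shRNA replicate 2. In both genes knockdown replicate 3 had the highest value of the 6 libraries, at 120 CPM for Cenpe and 191 CPM for Cenpf, and the spread among the knockdown samples was 1.25-fold and 1.40-fold.

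None of the 5 kinesin motors passed the test, and their median log2 fold change was 0.07 with all samples and 0.01 without Ctrl shRNA replicate 2. Kif11, the motor that pushes the spindle poles apart (chromosome 19, 37376403 to 37421859), stood at 261, 267 and 254 CPM in the controls against 255, 243 and 260 CPM after knockdown. The groups overlapped, and the whole set of 6 libraries spanned 243 to 267 CPM. Its log2 fold changes were -0.05 ± 0.07 and -0.04 ± 0.07 (adjusted p = 0.772 and 0.795). Kif20a and Kif23, motors of the central spindle, Kif2c, which removes tubulin from microtubule ends, and Kif4, a motor on chromosome arms, had log2 fold changes of 0.05 to 0.10 with all samples and of -0.03 to 0.03 without Ctrl shRNA replicate 2. Kif20a also lies on chromosome 18.

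The 7 further spindle and cytokinesis genes gave 0 calls as well. Their log2 fold changes ran from -0.53 (Nusap1, a microtubule bundling protein) to 0.03 (Prc1, which crosslinks the central spindle) with all samples. Without Ctrl shRNA replicate 2 they ran from -0.12 (Anln, which codes for anillin of the contractile ring) to 0.04 (Ect2, the activator of RhoA at the cleavage plane). Anln stood at 279, 271 and 269 CPM in the controls against 251, 250 and 263 CPM after knockdown, and it was the only member of this group whose knockdown samples all lay below all controls. Hmmr, Dlgap5 and Ckap2, which act on spindle microtubules, lay between these limits.

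The anaphase-promoting complex axis held the members with the largest and the smallest log2 fold change once Ctrl shRNA replicate 2 was left out, and 0 of 3 passed the test. Ube2c, the ubiquitin-conjugating enzyme that works with the complex (chromosome 2, 164769898 to 164778822), stood at 136, 260 and 139 CPM in the controls against 159, 165 and 150 CPM after knockdown. All knockdown samples were above Ctrl shRNA replicates 1 and 3 and all were below replicate 2. Its log2 fold change was -0.17 ± 0.26 with all 6 samples (adjusted p = 0.753) and 0.19 ± 0.07 without that library (95% interval 0.04 to 0.35, unadjusted p = 0.0199, adjusted p = 0.174).

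Pttg1, which codes for securin, the inhibitor of separase (chromosome 11, 43420250 to 43426251), stood at 43.9, 186 and 52.7 CPM in the controls against 38.9, 38.6 and 41.1 CPM after knockdown. All knockdown samples lay below all controls, and Ctrl shRNA replicate 2 was at 3.85-fold the mean of the other controls. The log2 fold change was -1.25 ± 0.55 (95% interval -2.59 to 0.09, adjusted p = 0.357). Without that library it was -0.30 ± 0.09 (95% interval -0.51 to -0.09, unadjusted p = 0.0109, adjusted p = 0.143). Cdc20, the activator of the complex at anaphase (chromosome 4, 118432901 to 118437352), stood at 206, 204 and 217 CPM in the controls against 219, 216 and 202 CPM after knockdown. The groups overlapped, Ctrl shRNA replicate 2 was within the range of the others, and the log2 fold changes were 0.02 ± 0.07 and -0.01 ± 0.07 (adjusted p = 0.91 and 0.958).

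Foxm1, the transcription factor that drives many of the other members (chromosome 6, 128362967 to 128376146), stood at 288, 222 and 258 CPM in the controls against 280, 316 and 273 CPM after knockdown. The groups overlapped, and Ctrl shRNA replicate 2 had the lowest value. On the log2 scale its fold change was 0.18 ± 0.12 (adjusted p = 0.473) and 0.08 ± 0.09 without that library (adjusted p = 0.67).

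**Figure D3:**
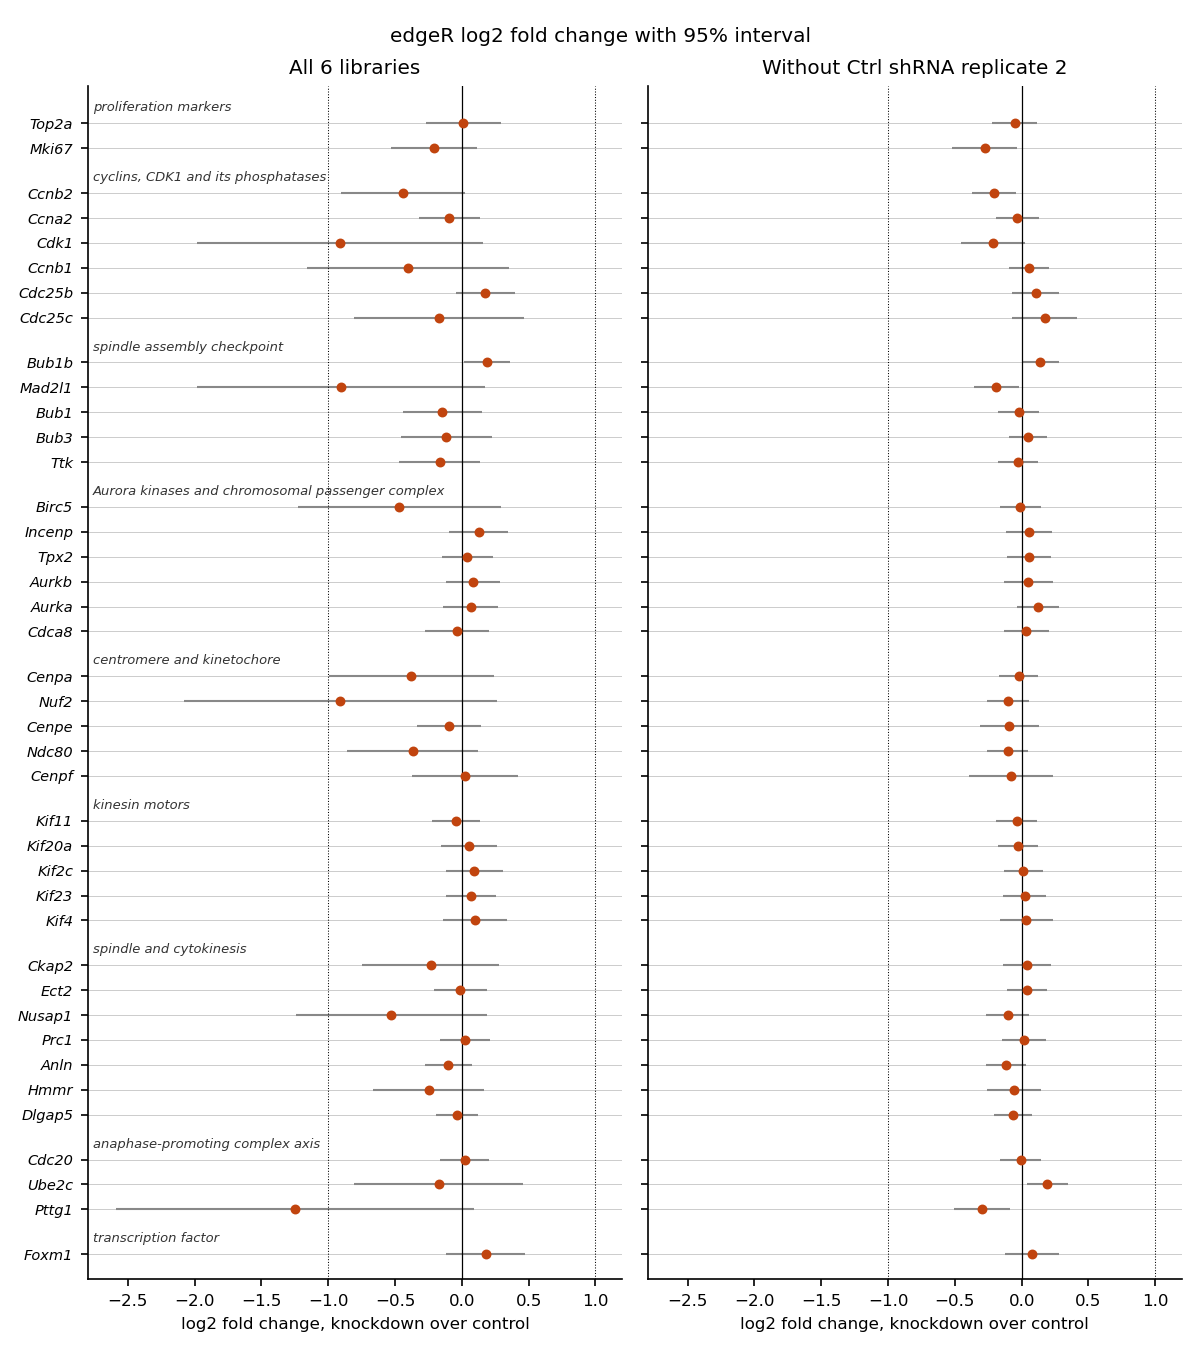
edgeR log2 fold change of knockdown over control for each member (points) with its 95% interval (bars), with all 6 samples and without Ctrl shRNA replicate 2, and dotted lines at log2 -1 and 1. The intervals of 33 members lie within the dotted lines in the left panel and those of all 40 in the right panel.

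Across the 5 libraries other than Ctrl shRNA replicate 2, 28 of the 40 members differed by under 1.2-fold between the highest and the lowest library, controls and knockdown together. The widest spreads were in Cenpf (1.40-fold), Pttg1 (1.37-fold), Mki67 (1.35-fold), Cdc25c (1.35-fold) and Cdk1 (1.33-fold). The summed level of the members was 7571 to 7908 CPM in these libraries and 10070 CPM in Ctrl shRNA replicate 2, and their median was 149 to 155 CPM against 204 CPM. As a share of all counts, without TMM factors, the order was the other way, with 0.804% to 0.858% in the 5 libraries and 0.716% in Ctrl shRNA replicate 2, whose TMM factor was 0.711 against 1.05 to 1.09.

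In Ctrl shRNA replicate 2 the members did not all lie on the same side of the other libraries. In CPM, 21 members were above all the other 5 libraries, where 34.4% of all genes were, and 11 were below all of them, where 38.6% of all genes were. At least 2-fold above the mean of Ctrl shRNA replicates 1 and 3 were 7 members (all genes 14.9%), namely Pttg1 (3.85-fold), Nuf2 (3.29-fold), Mad2l1 (2.96-fold), Cdk1 (2.90-fold), Ccnb1 (2.15-fold), Birc5 (2.15-fold) and Nusap1 (2.05-fold). The lowest were Cenpf (0.809-fold) and Foxm1 (0.813-fold). These 7 members were also the 7 whose 95% interval reached beyond 2-fold in the comparison of all 6 samples.

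The ratio of Ctrl shRNA replicate 2 to the other controls varied with the longest annotated coding length of the member. It had a median of 2.02 (1.18 to 3.85) in the 8 members under 1000 bases, 1.13 (0.813 to 3.29) in the 23 from 1000 to under 3000 bases, and 0.923 (0.809 to 1.296) in the 9 of 3000 bases or more. The Spearman correlation across the 40 members was -0.68, and across 12582 tested genes with a coding sequence it was -0.36, as a description of 1 library over the mean of 2. With the gene length of the deposited count table in place of coding length, these correlations were -0.24 and -0.25. The ratio of the knockdown mean to the mean of Ctrl shRNA replicates 1 and 3 had a correlation with coding length of -0.09 across the members and 0.21 across those genes. The part of transcript length in the comparison of all 6 samples was not tested.

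**Figure D4:**
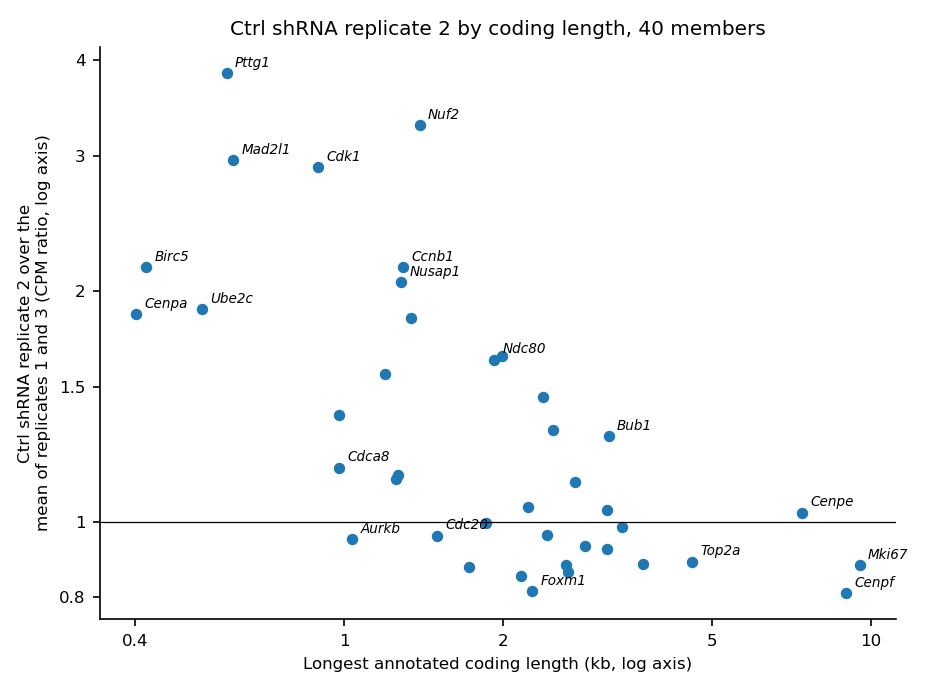
CPM of each member in Ctrl shRNA replicate 2 divided by the mean of Ctrl shRNA replicates 1 and 3 (log axis), against its longest annotated coding length in kilobases (log axis), with a line at equal levels. Members under 1 kb lie above the line, up to 3.85-fold for Pttg1, and most members over 3 kb lie at or below it.

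Levels were compared between members only per length, in FPKM. By the mean of all 6 libraries, the 3 highest were Top2a, then Ccnb2 at 134 ± 35.5 FPKM in the controls and 99.0 ± 5.67 FPKM after knockdown (SD, n = 3), then Cdc20 at 112 ± 4.68 and 114 ± 4.86 FPKM. In the controls Ccnb2 differed from neither beyond its SD, while after knockdown Top2a lay above Cdc20 and Cdc20 above Ccnb2 by more than their SDs. Ctrl shRNA replicate 2 had 175 FPKM of Ccnb2, and the other controls had 110 and 118 FPKM, close to their 111 and 117 FPKM of Cdc20. The 3 lowest were Cenpf at 9.93 ± 1.25 and 10.1 ± 2.00 FPKM, Ndc80 at 12.0 ± 3.50 and 9.34 ± 0.283 FPKM, and Cenpe at 13.4 ± 0.381 and 12.5 ± 1.42 FPKM. Ndc80 did not differ beyond its spread from either in the controls. This order rests on Ctrl shRNA replicate 2 for Nuf2, which had 36.2 FPKM there, 10.7 and 11.7 FPKM in the other controls and 10.4, 10.5 and 10.4 FPKM after knockdown. In those 5 libraries Nuf2 lay below Cenpe, which had 13.7 and 12.9 FPKM in the controls and 11.2, 12.3 and 14.01 FPKM after knockdown.

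Some members share positions with genes on the opposite strand, and the use of strand in counting is not given in the sources used here. Over the 6 libraries, Kif20a had 21498 counts against 16016 of its overlapping neighbour Cdc23, Cdc20 had 35688 against 12546 of Elovl1, Nusap1 had 25141 against 6332 of Oip5, and Kif4 had 13195 against 3909 of Pdzd11. Values of these genes, and of Ccna2, Cdc25b, Bub3, Cdca8 and Prc1, are uncertain to that extent. The pseudogenes Ccnb1-ps and Ccnb2-ps had 454 and 63 counts in all.

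Other genes of the same processes were taken from 6 lists with 138 genes, and 0 of them passed an adjusted p of 0.05 in edgeR with all 6 samples or without Ctrl shRNA replicate 2, or in DESeq2 with all 6. DESeq2 without that library called 1 higher (all genes 3.46%) and 6 lower (all genes 2.44%), and limma with quality weights called 6 higher and 12 lower, beside 8.67% and 6.34% of all genes. E2f3 was higher and Cenph, Cenpk, Cenpm, Kifc1, Ncaph2 and Psrc1 were lower in that DESeq2 fit, named after their values were seen. At an unadjusted p under 0.05 there were 6 higher and 10 lower with all samples (all genes 7.47% and 6.65%), and 5 and 22 without that library (all genes 9.54% and 10.3%). Their median log2 fold change was -0.09 and -0.04. Among the 17 genes of the anaphase-promoting complex and its cofactors, Anapc10, a substrate-binding subunit, had the lowest log2 fold change with all samples, at -1.50 ± 0.68 (adjusted p = 0.360), and Ctrl shRNA replicate 2 had 113 CPM of it against 17.4 to 27.5 CPM in the other 5 libraries. Fzr1, the CDH1 activator of the complex, had the highest, at 0.23 ± 0.14 (adjusted p = 0.430). Without that library these places were taken by the small subunit gene Anapc13 (-0.69 ± 0.25, adjusted p = 0.181) and by Cdc27 (0.12 ± 0.07, adjusted p = 0.387).

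The 21 genes of condensin, cohesin and separase ran from Sgo1, the protector of centromeric cohesin, at -0.29 ± 0.22 (adjusted p = 0.518), to the cohesin subunit gene Stag1 at 0.23 ± 0.10 (adjusted p = 0.357). Without Ctrl shRNA replicate 2 they ran from the condensin II gene Ncaph2 (-0.27 ± 0.08, adjusted p = 0.135) to Espl1, which codes for separase (0.14 ± 0.08, adjusted p = 0.353). Of the 34 further kinetochore and centromere genes, 26 were below 0 with all samples (7847 of all 15307 genes) and 25 without that library (8275 of all 15709), with medians of -0.23 and -0.08. Cenpw, a small centromere protein gene, was the lowest in both fits, at -1.93 ± 0.74 and -0.68 ± 0.28 (adjusted p = 0.351 and 0.223), with 144 CPM in Ctrl shRNA replicate 2 and 12.7 to 36.7 CPM in the others. The highest were Mad1l1, the partner of MAD2 (0.36 ± 0.11, adjusted p = 0.327), and, without that library, the histone kinase gene Haspin (0.27 ± 0.08, adjusted p = 0.145).

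The 25 further spindle and cytokinesis genes ran from Depdc1a (-0.87 ± 0.46, adjusted p = 0.387) to Gtse1 (0.27 ± 0.13, adjusted p = 0.370) with all samples, and from Psrc1 (-0.36 ± 0.09, adjusted p = 0.0936) to Gtse1 (0.22 ± 0.12, adjusted p = 0.359) without Ctrl shRNA replicate 2. The 18 G2/M entry kinases and partners ran from Cks2, the small CDK subunit, to the phosphatase gene Cdc25a in both fits. Cks2 stood at 94.8, 682 and 162 CPM in the controls against 97.9, 69.5 and 93.2 CPM after knockdown, with log2 fold changes of -1.85 ± 0.73 and -0.57 ± 0.21 (adjusted p = 0.352 and 0.189). Cdc25a was at 45.0, 32.2 and 39.5 CPM and at 50.6, 49.6 and 49.1 CPM, with log2 fold changes of 0.36 ± 0.13 and 0.23 ± 0.08 (adjusted p = 0.345 and 0.182). Its knockdown samples all lay above its controls, while those of Cks2 overlapped them.

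The 23 regulators of the DREAM and MuvB complexes and NF-Y had medians of 0.01 in both fits. E2f3, an activating E2F factor, was the highest in both, with 45.4, 31.0 and 43.0 CPM in the controls and 53.1, 56.6 and 51.9 CPM after knockdown. Its log2 fold changes were 0.43 ± 0.15 and 0.27 ± 0.08 (adjusted p = 0.339 and 0.118). The lowest were Lin9 of MuvB (-0.37 ± 0.21, adjusted p = 0.406) and, without Ctrl shRNA replicate 2, the retinoblastoma gene Rb1 (-0.22 ± 0.09, adjusted p = 0.201).

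The 33 S phase genes on a list of replication factors, the preceding stage of the cycle, also gave 0 calls in both edgeR fits and in DESeq2 with all 6 samples. DESeq2 without Ctrl shRNA replicate 2 called 0 higher (all genes 3.46%) and 4 lower (Gins2, Rfc2, Rfc3 and Slbp; all genes 2.44%). limma with quality weights called 0 higher and 5 lower, beside 8.67% and 6.34% of all genes. Their medians were -0.17 and -0.10. Without Ctrl shRNA replicate 2, 28 of 33 were below 0, and so were 22 of the 40 members and 8275 of all 15709 genes. At an unadjusted p under 0.05, 12 of the 33 and 4 of the 40 were lower, where 10.3% of all genes were. The difference between the lists was not tested. The S phase genes ran from Rfc4, a clamp loader subunit (-1.08 ± 0.47, adjusted p = 0.357), to Uhrf1 (0.13 ± 0.12, adjusted p = 0.603) with all samples, and from Gins1, a subunit of the replicative helicase (-0.33 ± 0.13, adjusted p = 0.200), to Ccne1, which codes for cyclin E1 (0.12 ± 0.15, adjusted p = 0.691), without that library.

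**Figure D5:**
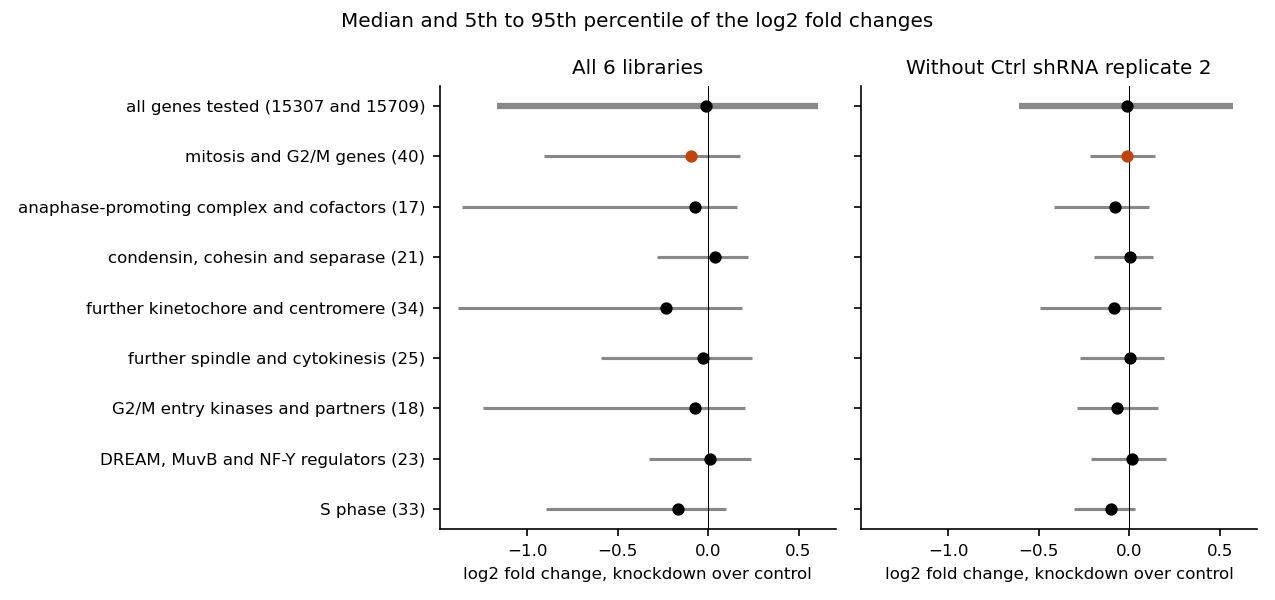
Median (points) and 5th to 95th percentile (bars) of the edgeR log2 fold changes of all genes tested, of the 40 members (orange) and of 7 other lists, with the number of genes in brackets, for all 6 samples and without Ctrl shRNA replicate 2. The median of the members moved from -0.10 to -0.01 and the bars of most lists became shorter without that library.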

How the data were processed

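RNA-seq libraries of MLE12 cells were grouped by the sample labels into 3 Ctrl shRNA and 3 Idh3α shRNA + Slc25a1 shRNA samples. The deposited count table holds unnormalized reads per Ensembl gene, as whole numbers. The authors also deposited FPKM values, which divide the counts by gene length and a library size of their own (0.716 to 1.08 times the total count). The submitters' processing notes name HISAT2 2.0.5, StringTie 1.3.3b, featureCounts 1.5.0-p3 and mm10, the protocol names Trinity, and the strand setting is not given in the sources used here. Of the genes shared with GENCODE M21 on GRCm38, 98.3% had identical coordinates, as did 37 of the 40 members. There were 0 unused columns of per-sample values.

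The main test was edgeR 4.0.16 (R 4.3.3) in quasi-likelihood mode after filterByExpr and TMM scaling. Benjamini-Hochberg adjusted p-values covered the whole table, with a threshold of 0.05. Alternatives were DESeq2 1.42.0, limma 3.58.1 with sample quality weights or on log2(FPKM + 1) and log2(FPKM + 0.1) of genes with at least 1 FPKM in 3 samples, other size factors, other filters, the replicate number as a block and leaving out each library. The scripts were tested on simulated data. Tables were made with Python 3.11.15 and pandas 2.3.3. Promoters were from RefSeq and coding lengths from GENCODE M21.

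The members and lists were chosen with earlier results of these data known. Values in every library are given for 19 members fixed by role or use as markers, and for the 3 largest and 3 smallest log2 fold changes of each edgeR fit. Anln and Ndc80 were added after their values were seen, as was the grouping by coding length. From each other list the largest and the smallest gene were named.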

Additional observations from a re-analysis of the deposited data

How the results depend on the processing

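Over the 18 fits no member passed an adjusted p of 0.05, in either direction. Of 680 values of single members under the alternatives, 577 stayed within 1 SE of the reported log2 fold change and 103 moved further. The median log2 fold change of the members, -0.10, was 0.10 with library size only, where the median of all genes was 0.16 and 13 members had the other sign. It was -0.0103 with DESeq2 without Ctrl shRNA replicate 2, -0.0167 with limma quality weights and -0.0270 with the replicate block without Ctrl shRNA replicate 2. Leaving out each library gave -0.124 to -0.0149, and 11 members changed sign without Ctrl shRNA replicate 2 against 0 to 3 without any other. With the threshold on the unadjusted p, 1144 genes were counted higher and 1018 lower, with 1 member higher, and without Ctrl shRNA replicate 2 there were 1 member higher and 4 lower.

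Calls over all genes, 9 higher and 1 lower, were 1 and 0 with library size only, 265 and 192 with DESeq2, 543 and 383 with DESeq2 without Ctrl shRNA replicate 2, and 1327 and 971 with limma quality weights. There were 3 lower without a count filter and 3 on either FPKM scale. Leaving out each library gave 0 to 175 higher and 0 to 106 lower, with the highest of both without Ctrl shRNA replicate 2. Each of the other 5 left 0 or 1 higher and 0 lower.

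The replicate block gave 0 higher and 0 lower over all genes, and 225 and 251 without Ctrl shRNA replicate 2. That last fit called Anapc13 and Cenpk lower among the 138 genes of the other mitosis lists, and none of the members. Deviations of samples with the same number from their group means had correlations of -0.21, -0.16 and 0.02. Deviations within a group are tied to each other, and Ctrl shRNA replicate 2 weighs on those of all controls. Whether the numbers pair the samples therefore cannot be told from these values. The causes of these shifts were not tested.

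With 3 samples a group, 1 of them apart, the biological coefficient of variation was 0.263, against 0.102 without Ctrl shRNA replicate 2. Every member had at least 861 counts in each library.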
